A study of Mus musculus with 33 samples.

Results

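The 9 genes described here form the relay by which a cell reads type I interferon and the brakes on that relay: the receptor chains Ifnar1 and Ifnar2, the kinase Jak1, the transcription factors Stat2, Irf9, Irf1 and Irf7, and the inhibitors Usp18 and Socs1. They were chosen by name, and all 9 were measured, among 17097 genes with a probe set of their own on the array. The 9 genes had 14 probe sets, and the probe set with the highest mean over all 33 arrays stood for each gene. These were 1449026_PM_at for Ifnar1, 1451462_PM_a_at for Ifnar2, 1433805_PM_at for Jak1, 1421911_PM_at for Stat2, 1421322_PM_a_at for Irf9, 1448436_PM_a_at for Irf1, 1417244_PM_a_at for Irf7, 1418191_PM_at for Usp18 and 1450446_PM_a_at for Socs1.

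Whole kidneys came from NZB X NZW F1 (BWF1) mice, a hybrid strain that develops lupus nephritis with age. Treated mice were females that received, by vein at 9 weeks of age (8 in another passage of the study's text), an adenoviral vector encoding mouse interferon alpha (Adv-IFNα), which speeds up the disease. Kidneys were taken from 5 treated mice at each of weeks 1, 2, 3, 5, 7 and 9 after injection and from 3 untreated mice, 1 array per mouse. The study describes its controls as age-matched, but the untreated mice carry no time point or age in the labels, and a single untreated group stands against all weeks, so age and week after injection cannot be told apart. No mice given an empty vector were analysed here, so the effects of interferon and vector cannot be told apart. The 3 untreated arrays serve all 6 comparisons with treatment, which are therefore not independent. Values are log2 intensities, and a difference of 1 is a doubling. Array brightness has no absolute scale, so levels are compared between groups for 1 gene at a time and never between genes. In whole kidney, fewer cells of a type and less RNA per cell cannot be told apart.

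Type I interferon binds a receptor of IFNAR1 and IFNAR2, and the kinases JAK1 and TYK2 on the receptor tails then phosphorylate STAT proteins. STAT2 joins IRF9 in the complex called ISGF3, which binds the interferon-stimulated response element (ISRE) in promoters of responding genes, several of which encode parts of the relay itself. IRF7 drives further interferon alpha production, IRF1 is classically induced through gamma-activated sites (GAS), USP18 sits on IFNAR2 and blocks renewed JAK1 signalling, and SOCS1 inhibits the kinases.

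The promoters of 4 members are shown because Stat2 and Irf7 were higher than untreated at every week, Irf1 passed the test at week 7 alone, and Socs1, whose promoter holds the ISRE letters, passed no test. Each is the 250 bases before the gene's start (RefSeq, GRCm38.p6), written 5′ to 3′ on the gene's strand, with motif letters in capitals. Stat2 lies on the plus strand (chr10:128270248-128270497), Irf1 on the plus strand (chr11:53769764-53770013), Irf7 on the minus strand (chr7:141266425-141266674) and Socs1 on the minus strand (chr16:10785537-10785786).
Stat2: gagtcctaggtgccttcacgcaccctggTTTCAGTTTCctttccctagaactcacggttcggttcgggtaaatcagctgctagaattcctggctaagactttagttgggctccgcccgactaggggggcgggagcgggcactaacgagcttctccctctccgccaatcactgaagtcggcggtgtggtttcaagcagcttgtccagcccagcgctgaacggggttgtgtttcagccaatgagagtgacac
Irf1: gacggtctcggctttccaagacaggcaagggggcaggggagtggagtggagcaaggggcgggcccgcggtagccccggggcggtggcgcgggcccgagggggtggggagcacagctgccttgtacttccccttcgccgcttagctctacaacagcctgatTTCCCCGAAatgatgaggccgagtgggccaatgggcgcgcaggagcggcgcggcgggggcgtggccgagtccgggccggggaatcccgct
Irf7: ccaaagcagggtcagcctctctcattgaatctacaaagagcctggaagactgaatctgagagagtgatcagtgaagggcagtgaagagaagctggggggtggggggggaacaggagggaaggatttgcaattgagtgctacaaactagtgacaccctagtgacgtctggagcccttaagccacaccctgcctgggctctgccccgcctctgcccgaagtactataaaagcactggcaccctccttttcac
Socs1: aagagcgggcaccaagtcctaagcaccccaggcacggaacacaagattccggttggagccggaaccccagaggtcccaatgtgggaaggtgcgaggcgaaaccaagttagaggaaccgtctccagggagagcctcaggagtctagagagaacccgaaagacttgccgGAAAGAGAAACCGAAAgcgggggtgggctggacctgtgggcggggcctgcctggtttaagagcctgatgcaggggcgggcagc
The ISRE core was searched as GAAA, any 2 bases and GAAA again, and the GAS motif as TTCNNNGAA, on both strands, in windows from 250 bases before to 50 after a start. Of 32851 promoters, 3.44% held the ISRE core and 8.30% the GAS motif. The Stat2 window held 1 ISRE core, on the strand opposite the gene, beginning 222 bases before the start. The Socs1 window held 2 overlapping ISRE cores, beginning 83 and 77 bases before the start. The window of Irf1 shown above held a GAS motif 90 bases before the start, that of Ifnar2 held one 214 bases before the start, and in Ifnar1 one ran over the start itself. These letters were not in the windows of Irf7, Jak1 and Irf9, and the table held no promoter for Usp18. A match describes the letters and is not evidence of binding.

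Across the kidneys, the same 4 genes stood higher than untreated at every week: Stat2, Irf9, Irf7 and Usp18. At weeks 1, 2, 3, 5 and 9 these were 4 of the 9 genes with a limma adjusted p below 0.05 over all 45037 probe sets, and at week 7 Irf1 made a count of 5. No member was called lower than untreated at any week, where 0.426%, 0.449%, 0.302%, 1.11%, 5.82% and 7.53% of all probe sets were at weeks 1, 2, 3, 5, 7 and 9. Over all probe sets, the share called higher was 1% at week 1, 0.877% at week 2, 1.07% at week 3, 1.85% at week 5, 9.85% at week 7 and 6.41% at week 9. The median log2 change of the 9 genes was 0.68, 0.56, 0.94, 0.62, 1.09 and 0.79 over the same weeks, where that of all probe sets lay between −0.06 and 0.02. All 5 treated kidneys exceeded all 3 untreated ones for 5, 4, 5, 3, 4 and 4 of the 9 genes at weeks 1, 2, 3, 5, 7 and 9, and for 3.66%, 4.11%, 4.95%, 4.9%, 9.06% and 5.96% of all probe sets.

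**Figure D1:**
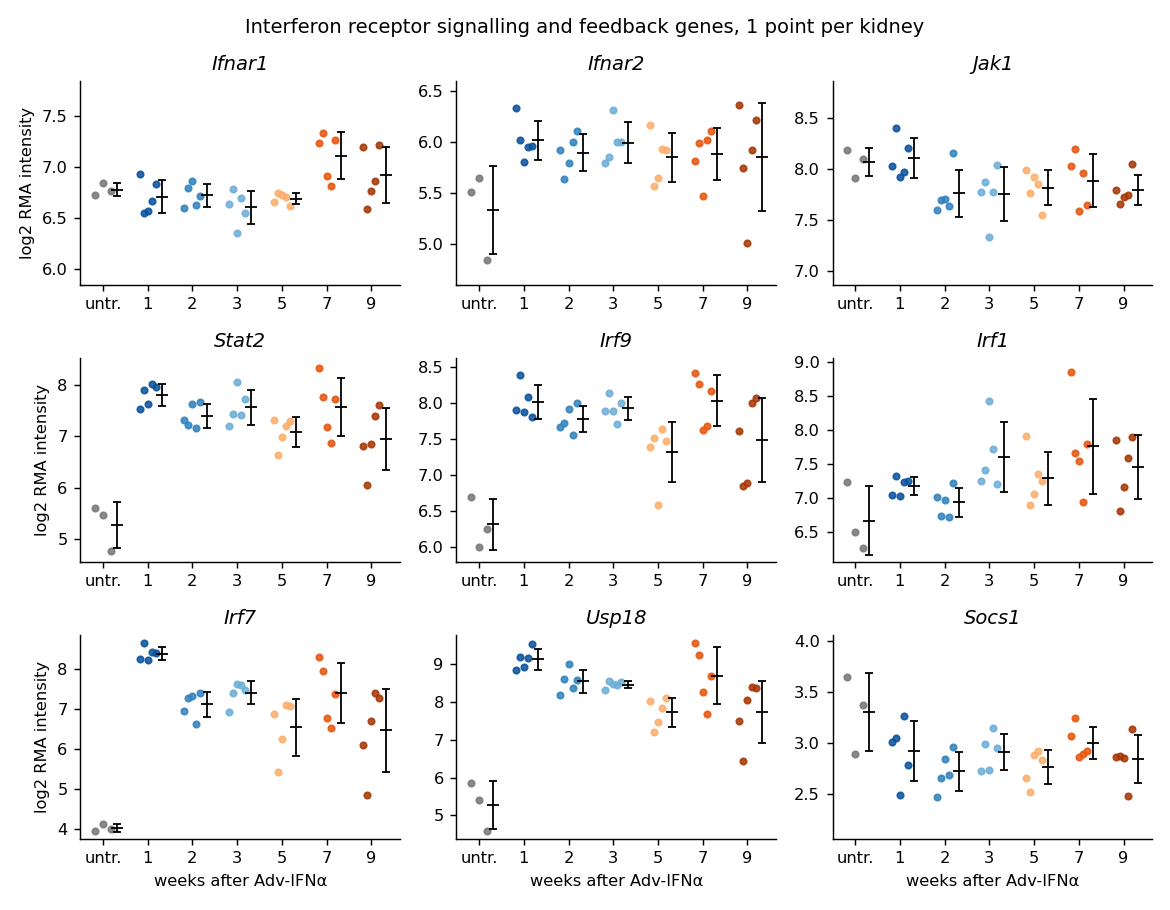
Log2 RMA intensity of each of the 9 genes in each kidney (vertical axis) by group (horizontal axis: untreated, then weeks after Adv-IFNα), with 1 point per mouse and the mean ± SD beside the points (n = 3 untreated, 5 at each week). For Stat2, Irf7 and Usp18 all 30 treated kidneys lie above the 3 untreated ones, while Jak1 and Ifnar1 overlap untreated at every week.

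Neither receptor chain passed the test against untreated at any week. For Ifnar1 the untreated kidneys gave 6.72, 6.84 and 6.77, and treated kidneys of weeks 1 to 5 lay around the same level, with differences of −0.07, −0.06, −0.18 and −0.09 at weeks 1, 2, 3 and 5. At week 7 the 5 kidneys gave 7.23, 7.34, 6.91, 6.82 and 7.26, and at week 9 7.20, 6.58, 6.76, 6.86 and 7.21. Week 7 stood 0.33 above untreated (95% interval 0.06 to 0.61), with 4 of 5 kidneys above the highest untreated one, but did not pass the test (adjusted p = 0.0888), and passed without replicate 4 of week 7 (0.41, adjusted p = 0.0314). Against the earlier treated weeks the rise at week 7 did pass. It was 0.40 over week 1 (adjusted p = 0.0155, where 9.46% of all probe sets were called higher), 0.39 over week 2 (0.0205, where 8.58% were), 0.51 over week 3 (0.00272, where 6.9% were) and 0.42 over week 5 (0.0185, where 4.72% were). Of these, the difference from week 3 passed with each of the 10 kidneys left out in turn. Leaving out replicate 2 or 5 of week 7 ended the call against week 1 (lowest difference 0.35, adjusted p = 0.0574), against week 2 (0.34, adjusted p = 0.0763) and against week 5 (0.37, adjusted p = 0.0701). Leaving out replicate 1 of week 7 also ended the calls against week 2 (0.36, adjusted p = 0.0596) and week 5 (0.39, adjusted p = 0.059), and leaving out replicate 1 (0.36, adjusted p = 0.0588) or 4 (0.37, adjusted p = 0.0519) of week 2 ended that against week 2.

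Ifnar2 read 5.51, 5.65 and 4.84 in the untreated kidneys, the third clearly below the other 2, and its treated means lay between 5.85 and 6.02. It stood higher by 0.68 at week 1 (95% interval 0.25 to 1.11, adjusted p = 0.0999) and by 0.52 to 0.66 at the later weeks, and passed at none (lowest adjusted p = 0.0748, at week 7). All 5 kidneys lay above the untreated ones at weeks 1 and 3. Single kidneys and the handling of probe sets changed these calls. Ifnar2 passed at week 1 (0.84, adjusted p = 0.0443) and week 7 (0.71, adjusted p = 0.0435) without untreated replicate 2, at week 7 without its replicate 3 (0.65, adjusted p = 0.0363), and at week 9 without its replicate 3 (0.73, adjusted p = 0.00712). As the mean of its 3 probe sets Ifnar2 passed at weeks 5 (0.49, adjusted p = 0.0395), 7 (0.44, adjusted p = 0.0204) and 9 (0.47, adjusted p = 0.0165), and with dim probe sets left out of the fit it passed at week 7 (adjusted p = 0.0473). The 2 dimmer probe sets themselves passed at no week, with differences of 0.13 to 0.79 for one and −0.16 to 0.24 for the other.

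Jak1, the kinase shared by several cytokine receptors, did not pass at any week. Untreated kidneys gave 8.18, 7.92 and 8.10, and the differences ran from −0.31 at week 3 (95% interval −0.62 to 0.005) to 0.04 at week 1 (−0.27 to 0.36), with adjusted p from 0.247 to 0.94. Its other 2 probe sets also passed at no week.

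Stat2 and Irf9, the partners in ISGF3, were higher from the first week on. Stat2 read 5.60, 5.47 and 4.77 in untreated kidneys, 7.53, 7.91, 7.63, 8.01 and 7.95 at week 1 and 7.31, 7.21, 7.62, 7.17 and 7.66 at week 2. At week 3 the values were 7.19, 7.42, 8.05, 7.41 and 7.72, and at week 5 7.31, 6.63, 6.99, 7.20 and 7.30. At week 7 they were 8.32, 7.77, 7.18, 6.86 and 7.73, and at week 9 6.81, 6.05, 6.85, 7.39 and 7.60. Every treated kidney was above every untreated one, the lowest being a week 9 kidney. The rise was 2.53 (SE 0.27, 5.76-fold, adjusted p = 1.07e-07) at week 1 and 1.66 (SE 0.27, 3.16-fold, adjusted p = 0.000121) at week 9, with 2.12, 2.28, 1.81 and 2.29 at weeks 2, 3, 5 and 7. A second, dimmer Stat2 probe set moved the same way by less and passed at weeks 1 (1.07, adjusted p = 0.0107), 3 (1.02, adjusted p = 0.0158) and 7 (0.97, adjusted p = 0.00396) but not at weeks 2 (0.77, adjusted p = 0.088), 5 (0.75, adjusted p = 0.0748) or 9 (0.47, adjusted p = 0.179).

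Irf9, the DNA-binding part of ISGF3, read 6.70, 5.999 and 6.26 in untreated kidneys, 7.91, 8.40, 7.88, 8.09 and 7.80 at week 1 and 7.67, 7.72, 7.92, 7.56 and 8.003 at week 2. At week 3 it read 7.90, 8.14, 7.89, 7.71 and 7.995, and at week 5 7.39, 7.52, 6.59, 7.64 and 7.47. At week 7 it read 8.42, 8.27, 7.63, 7.69 and 8.16, and at week 9 7.61, 6.85, 6.89, 7.997 and 8.07. Treated and untreated kidneys did not overlap except at week 5, where replicate 3 fell below the highest untreated kidney. The rise was 1.70 at week 1 (SE 0.24, adjusted p = 2.53e-05), 1.46, 1.61 and 1.001 at weeks 2, 3 and 5, 1.72 at week 7 and 1.17 at week 9 (adjusted p = 0.0014). The week 5 call (adjusted p = 0.0169) was lost when untreated replicate 2 was left out (0.84, adjusted p = 0.0728), when untreated replicate 3 was (0.97, adjusted p = 0.0775), with array weights (0.98, adjusted p = 0.0597), and when only week 5 and untreated entered the fit (adjusted p = 0.0538).

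Irf7, the factor that sustains interferon alpha production, had the largest log2 change of the 9 genes at week 1. Untreated kidneys gave 3.95, 4.13 and 3.98, near the median of all probe sets (2 of the 3 were below the median of their own array). At week 1 the kidneys gave 8.23, 8.64, 8.23, 8.41 and 8.39, and at week 2 6.94, 7.27, 7.32, 6.63 and 7.39. No other treated week had its 5 kidneys as close together as week 1. At week 3 they gave 6.91, 7.41, 7.61, 7.59 and 7.47, and at week 5 6.86, 5.43, 6.24, 7.08 and 7.08. At week 7 they gave 8.29, 7.95, 6.78, 6.53 and 7.37, and at week 9 6.09, 4.85, 6.69, 7.40 and 7.26. All treated kidneys were above all untreated ones, and the lowest at weeks 5, 7 and 9 stood more than 1 log2 unit below the highest of the same week. Irf7 rose by 4.36 at week 1 (SE 0.40, 20.6-fold, adjusted p = 5.21e-09), by 3.09 at week 2, 3.38 at week 3, 2.52 at week 5 (5.73-fold) and 3.37 at week 7, and by 2.44 at week 9 (5.42-fold, adjusted p = 0.00011).

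Irf1, a factor downstream of both interferon types, passed the test at week 7 alone. Untreated kidneys gave 7.24, 6.50 and 6.26, the first of which lay within the treated range. At week 1 the values were 7.05, 7.33, 7.03, 7.23 and 7.25, and at week 2 7.01, 6.73, 6.98, 6.73 and 7.23. These groups overlapped untreated, and the differences of 0.51 (adjusted p = 0.477) and 0.27 (adjusted p = 0.74) did not pass. At week 3 the values were 7.25, 7.41, 8.43, 7.73 and 7.20, and at week 5 7.91, 6.89, 7.05, 7.35 and 7.25. At week 7 they were 8.86, 7.67, 7.54, 6.94 and 7.80, and at week 9 7.86, 6.81, 7.16, 7.59 and 7.90. Replicate 1 of week 7 was the highest of all 33 kidneys. Week 7 was 1.09 above untreated (SE 0.30, adjusted p = 0.0105), where weeks 3, 5 and 9 stood at 0.94 (adjusted p = 0.115), 0.62 (adjusted p = 0.28) and 0.79 (adjusted p = 0.0715). Week 9 passed without its replicate 2 (0.96, adjusted p = 0.0274) or without untreated replicate 1 (1.08, adjusted p = 0.0362). The week 7 call was lost without untreated replicate 3 (0.89, adjusted p = 0.0875), with an RNA quality covariate (1.16, adjusted p = 0.0768) and when only week 7 and untreated entered the fit (adjusted p = 0.0947).

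Of the feedback inhibitors, Usp18 was higher at every week and Socs1 passed no test. Usp18, which also removes an interferon-induced ubiquitin-like modifier from proteins, read 5.84, 5.41 and 4.57 in untreated kidneys, 8.84, 9.19, 8.94, 9.18 and 9.54 at week 1 and 8.19, 8.61, 9.001, 8.38 and 8.60 at week 2. At week 3 it read 8.32, 8.55, 8.48, 8.45 and 8.54, and at week 5 8.02, 7.21, 7.47, 7.85 and 8.11. At week 7 it read 9.58, 9.25, 8.27, 7.69 and 8.70, and at week 9 7.49, 6.43, 8.07, 8.39 and 8.38. No treated kidney overlapped the untreated ones, and replicate 2 of week 9 came nearest to them. The rise was 3.86 at week 1 (SE 0.35, 14.6-fold, adjusted p = 3.92e-09), 3.28 and 3.19 at weeks 2 and 3, 2.46 at week 5 (5.49-fold), 3.42 at week 7 (10.7-fold) and 2.48 at week 9 (5.57-fold, adjusted p = 1.53e-05).

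Socs1 was dim, below the median of its own array on all 33 arrays, with 3.65, 2.89 and 3.37 in untreated kidneys. Its treated means lay between 2.72 and 3.00, below the untreated mean at each week, and no difference passed. The differences were −0.39, −0.59, −0.40, −0.54, −0.31 and −0.47 at weeks 1, 2, 3, 5, 7 and 9, with adjusted p from 0.0519 at week 9 to 0.275 at week 1, and with the RNA quality covariate the sign turned at weeks 1, 7 and 9 (0.02, 0.14 and 0.02). Socs1 was called lower in some alternatives: without untreated replicate 2 at weeks 2 (−0.79, adjusted p = 0.0103), 5 (−0.75, adjusted p = 0.0107), 7 (−0.52, adjusted p = 0.0446) and 9 (−0.67, adjusted p = 0.0101), without replicate 5 of week 9 (−0.54, adjusted p = 0.032), with arrays scaled to their 75th percentile at weeks 2, 5 and 9 (adjusted p = 0.0251 to 0.0297), and at week 9 with 1 mean per gene (adjusted p = 0.0415).

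**Figure D2:**
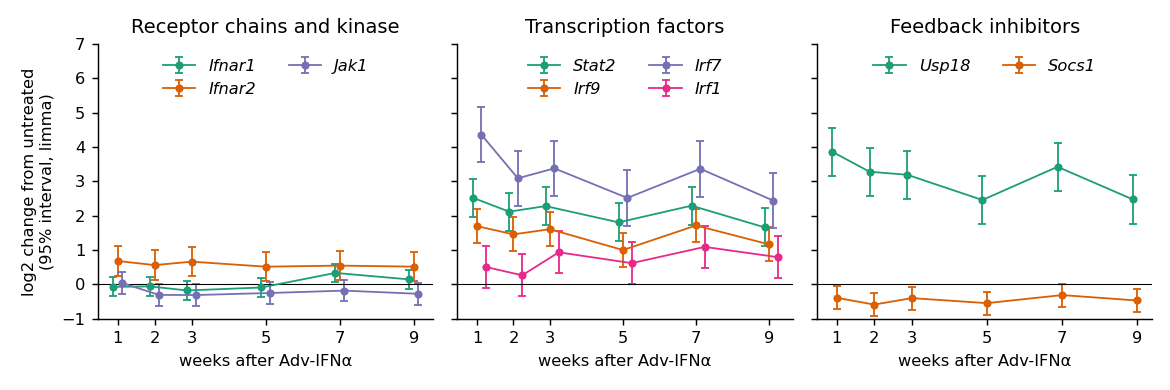
Log2 change from untreated (vertical axis) by weeks after Adv-IFNα (horizontal axis) for receptor chains and kinase, transcription factors, and feedback inhibitors, where points are limma estimates and bars are unadjusted 95% intervals. Irf7 goes from 4.36 at week 1 to 2.44 at week 9 and Usp18 from 3.86 to 2.48, while Irf1 is highest at week 7 (1.09).

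The treated weeks were then compared with each other. These differences do not use the untreated values, but the fit took its error from all 33 arrays, the untreated ones among them. Over the 6 weeks, an F-test passed for 4 of the 9 genes, where it passed for 15.4% of all probe sets. These were Irf7 (adjusted p = 0.000836), Usp18 (adjusted p = 0.00289), Ifnar1 (adjusted p = 0.0117) and Irf9 (adjusted p = 0.0417). It did not pass for Stat2 (adjusted p = 0.0517), Irf1 (0.154), Jak1 (0.294), Socs1 (0.612) and Ifnar2 (0.943). Between weeks 1 and 9, 3 of the 9 genes passed, all lower at week 9, where 4.64% of all probe sets were called lower. Irf7 fell by 1.92 (SE 0.34, adjusted p = 0.000381), Usp18 fell by 1.39 (SE 0.30, adjusted p = 0.00244) and Stat2 fell by 0.86 (SE 0.24, adjusted p = 0.0158). The Irf7 and Usp18 calls passed without each of the 10 kidneys in turn, and that of Stat2 was lost without replicate 2 of week 9 (−0.64, adjusted p = 0.0631). Irf9 passed only without replicate 5 of week 9 (−0.68, adjusted p = 0.0457). Week 5 was also below week 1 for Irf7 (−1.84, adjusted p = 0.00362) and Usp18 (−1.41, adjusted p = 0.013), 2 members where 0.206% of all probe sets were called lower. Without replicate 5 of week 1 the Usp18 difference was −1.31 (adjusted p = 0.0544).

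Week 7 stood above week 5 for Usp18 by 0.97 (adjusted p = 0.0388) and for Irf9 by 0.72 (adjusted p = 0.0279), which with Ifnar1 made 3 members where 4.72% of all probe sets were called higher. The Usp18 call was lost in 6 of the 10 fits that left out 1 kidney (replicates 2, 3 and 4 of week 5 and 1, 2 and 5 of week 7, down to 0.75, adjusted p = 0.159) and that of Irf9 in 4 (replicate 3 of week 5 and 1, 2 and 5 of week 7, down to 0.53, adjusted p = 0.12). Irf7 at week 7 was −0.99 from week 1 (adjusted p = 0.0465, where 5.36% of all probe sets were called lower), a call lost in 8 of the 10 fits that left out 1 kidney, all but those without replicate 1 or 2 of week 7 (down to −0.78, adjusted p = 0.134). Irf1 at week 7 was 0.83 above week 2 (adjusted p = 0.029), 1 of 2 members where 8.58% of all probe sets were called higher, and without replicate 1 of week 7 the difference was 0.55 (adjusted p = 0.151). Leaving out replicate 5 of week 7 (0.82, adjusted p = 0.0601) or replicates 2 (0.78, adjusted p = 0.0659) and 4 (0.77, adjusted p = 0.0694) of week 2 also ended it. Ranked by level, no neighbouring treated weeks differed for any member. Neighbours in such an order are the closest pairs by construction, so this does not show that the treated weeks were level. For Stat2, Irf9, Irf7 and Usp18 the lowest treated week differed from untreated, and that step was the only one in their order to pass.

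Whether Irf7 fell between week 1 and weeks 2 and 3 depended on which kidneys set the error. Week 2 was 1.27 below week 1 and week 3 was 0.98 below it, with no overlap between the groups, but in the fit over all 33 arrays neither passed (adjusted p = 0.174 and 0.424). When only the compared weeks entered the fit, both passed (adjusted p = 0.00325 and 0.00923), where 0.0666% and 0.0622% of all probe sets were called lower. Stat2 at week 5 against week 1 passed too (−0.72, adjusted p = 0.0254, against 0.202 over all arrays), with Irf7 and Usp18, where 0.315% were called lower. That fit, and leaving out single kidneys between weeks other than 1 and 9, were chosen after seeing the data. Irf7 spread widely in the late weeks, with an SD of 0.17 at week 1 and 1.04 at week 9, and the fit over all groups uses 1 spread for every week. In the same fits of 2 weeks the calls of week 7 over week 5 were lost for Usp18 (adjusted p = 0.0896), Irf9 (0.072) and Ifnar1 (0.0673), as were Ifnar1 at week 7 over week 1 (0.0677) and week 2 (0.0594) and Irf1 at week 7 over week 2 (0.0636).

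With the weeks pooled, kidneys that were high for their week in one responding gene tended to be high in the others. Over the 30 treated kidneys Irf7 and Usp18 gave Pearson r = 0.94 and Spearman rho = 0.90 (permutation test, adjusted p = 6e-05 for both over the 36 pairs of members). Without the 2 kidneys farthest from the median of Irf7, r was 0.90. With each kidney taken as its deviation from the mean of its week, r was 0.92 (permutation within weeks, p = 1e-05, the smallest the permutations can give, adjusted p = 0.00012). Stat2 gave within-week r = 0.89 with Irf7 and 0.89 with Usp18 (adjusted p = 0.00012 for both), and Irf9 gave 0.67 with Stat2 (0.0108), 0.64 with Irf7 (0.0386) and 0.61 with Usp18 (0.0386). In single weeks of 5 kidneys, r among Stat2, Irf7 and Usp18 was always positive. For Irf9 it was uneven. It ran from 0.04 (week 3) to 0.95 (week 2) with Stat2, and from −0.14 (week 3) to 0.96 (week 7) with Irf7. With Usp18 it ran from −0.02 (week 1) to 0.93 (week 7).

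Irf1 varied with them within weeks when the weeks were pooled, although against untreated it passed at week 7 alone. In single weeks its r with Usp18 ran from 0.07 (week 3) to 0.87 (week 7). Its within-week r was 0.81 with Stat2 (adjusted p = 0.00027), 0.66 with Irf7 (0.00554) and 0.63 with Usp18 (0.0108), where over all 30 treated kidneys it was 0.52 (rho = 0.44, adjusted p = 0.0178 and 0.0446), 0.32 (rho = 0.34, adjusted p = 0.136 and 0.108) and 0.31 (rho = 0.20, adjusted p = 0.147 and 0.347). No pair of a receptor chain with Irf7 or Usp18 passed. Ifnar2 gave within-week r = 0.21 with Irf7 (adjusted p = 0.524) and 0.07 with Usp18 (0.816), and Ifnar1 gave 0.39 (0.222) and 0.51 (0.118), with signs for Ifnar1 that were not the same in every week. Over the 30 treated kidneys Ifnar2 passed by Pearson with Irf9 (r = 0.46, adjusted p = 0.0459, but rho = 0.31, adjusted p = 0.136) and by Spearman with Irf1 (rho = 0.44, adjusted p = 0.0446, but r = 0.35, adjusted p = 0.117). Within weeks neither passed (r = 0.47, adjusted p = 0.147, and r = 0.45, adjusted p = 0.0988). Pairs with Jak1 or Socs1 passed too. Jak1 gave r = 0.47 and rho = 0.54 with dim Socs1 (adjusted p = 0.0386 and 0.0119), and r = 0.47 within weeks (0.0465). With Irf7, Jak1 gave r = 0.48 and rho = 0.49 (0.0347 and 0.027), but 0.30 within weeks (0.203). By Spearman alone, Jak1 passed with Irf9 (rho = 0.47, adjusted p = 0.036) and Stat2 (0.43, 0.0492), and Socs1 with Irf9 (0.52, 0.0163). Single kidneys stood low for many members at once. Replicate 2 of week 9 was the lowest of its week for Ifnar1, Jak1, Stat2, Irf1, Irf7, Irf9 and Usp18, and replicate 4 of week 7 for Ifnar1, Stat2, Irf1, Irf7 and Usp18.

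**Figure D3:**
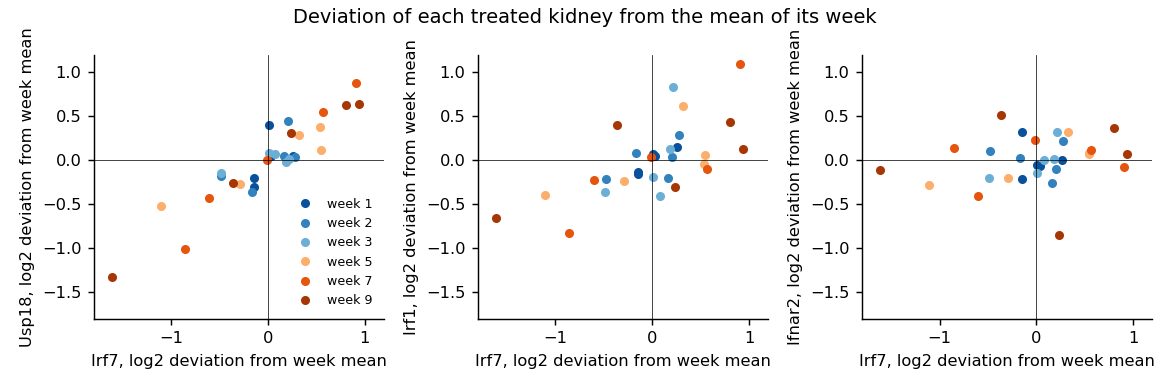
Each treated kidney as its log2 deviation from the mean of its week for Irf7 (horizontal axes) against Usp18, Irf1 and Ifnar2 (vertical axes), 1 point per mouse, coloured by week (n = 30). Usp18 lies along a line with Irf7 (r = 0.92), Irf1 follows more loosely (r = 0.66) and Ifnar2 scatters (r = 0.21).

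The genes most like each member over the 33 arrays were sought among 8309 genes whose mean was at or above the median over genes. For Irf7 they were Oasl1 (r = 0.96), Xaf1 (0.96) and Ifih1 (0.95), for Usp18 Ifit1 (0.98), Xaf1 (0.97) and Oas1b (0.96), and for Stat2 Gbp3 (0.97), Xaf1 (0.97) and Irgm2 (0.96). Irf9 was nearest to Gbp7, Ifit3 and Xaf1 (0.91, 0.91 and 0.90). Irf1 was nearest to Gbp2 (0.90), Psmb8 (0.86) and Cxcl10 (0.85). Ifnar2 was nearest to Sp100 (0.72), Ifi27l2a (0.67) and Plgrkt (0.65), Ifnar1 to Lhfpl2 (0.88), Rpl15 (0.86) and Frzb (0.86), Jak1 to Wwp1 (0.72), Snx6 (0.71) and Ube3a (0.69), and Socs1 to Ap2a1 (0.83), Lrch4 (0.74) and Rnf126 (0.72). Over the 30 treated arrays alone, r with the first gene named was 0.90 for Irf7, 0.95 for Usp18, 0.92 for Stat2 and 0.79 for Irf9. It was 0.88 for Irf1, 0.55 for Ifnar2, 0.88 for Ifnar1, 0.72 for Jak1 and 0.75 for Socs1. Ifnar2 with Ifi27l2a gave 0.41 there, and Ifnar1 with Lhfpl2 had a Spearman rho of 0.59 over the 33 arrays. All these values describe arrays that share treatment groups and carry no test.

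The rest of the pathway was read from lists of its parts. Beside the counts of these lists, and of the induced genes further below, stand the shares of all probe sets called higher than untreated. They were 1%, 0.877%, 1.07%, 1.85%, 9.85% and 6.41% at weeks 1, 2, 3, 5, 7 and 9, and 7.53% were called lower at week 9. Of 11 interferon ligand genes measured, none passed at weeks 1 to 5, and Ifna4 alone passed at weeks 7 (0.54, SE 0.17, adjusted p = 0.0247) and 9 (0.50, SE 0.17, adjusted p = 0.0394), from a dim untreated mean of 1.73. A call for 1 of 11 genes is near the share of all probe sets at week 7. Of 7 other receptor chains and Janus kinases, none passed at weeks 1 to 5 and 3 were higher at week 7, the interferon gamma receptor chains Ifngr1 (0.88, SE 0.18, adjusted p = 0.000721) and Ifngr2 (0.67, SE 0.19, adjusted p = 0.012) and the interferon lambda receptor chain Ifnlr1 (0.79, SE 0.27, adjusted p = 0.0421). At week 9 Ifngr1 and Ifngr2 passed again (0.68 and 0.65) together with Il10rb (0.53), a chain shared by the interferon lambda and interleukin 10 receptors. Ifnar1 and Ifnar2 passed at neither week, as given above.

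Of 5 other STAT genes, none passed at weeks 1 to 5 and Stat3 alone was higher at weeks 7 (1.07, SE 0.17, adjusted p = 6.36e-05) and 9 (0.82). Of 5 other interferon regulatory factors, none passed at weeks 1 to 3, where Irf7 and Irf9 did. Irf8, a factor of myeloid and B cells, was higher from week 5 (week 7 1.12, SE 0.23, adjusted p = 0.000891), and Irf4, known from plasma cells, was higher at week 7 (1.56, SE 0.34, adjusted p = 0.00155) and week 9 (1.77). Of 16 other negative regulators, none passed at week 1, 1 each at weeks 2 and 3 (Pias1) and at week 5 (Ptprc), and 5 were higher at week 7, led by the leukocyte phosphatase Ptprc (2.16, SE 0.24, adjusted p = 2.26e-07) and the cytokine feedback inhibitor Socs2 (1.49, SE 0.30, adjusted p = 0.000722), with Pias3 (0.59), Ptpn11 (0.31) and Socs7 (0.30). At week 9 Ptprc, Socs2, Pias3 and Pias1 were higher and Pias4 was lower (−0.52, SE 0.15, adjusted p = 0.016). Ptprc is also among the leukocyte markers given below, so its calls count in both lists.

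Conjugation enzymes of the modifier that Usp18 removes were higher with it at week 1: Uba7, Ube2l6, Herc6 and Trim25 all passed there, led by Herc6 (1.42, SE 0.31, adjusted p = 0.0107) and Ube2l6 (1.32, SE 0.32, adjusted p = 0.0258). The count of these 4 genes called higher was 4, 2, 3, 1, 4 and 4 at weeks 1, 2, 3, 5, 7 and 9. Of 11 kinases and adaptors upstream of Irf3 and Irf7, the double-stranded RNA sensor Tlr3 alone passed at weeks 1 to 5 (week 1 0.93, SE 0.16, adjusted p = 0.000604), and at week 7 Tlr7 (1.37, SE 0.30, adjusted p = 0.00149), Myd88 (0.75), Tbk1 (0.43) and Ikbke (0.75) joined it. At week 9 the 4 called higher were Tlr3, Tlr7, Myd88 and Sting1 (0.68).

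Genes that interferon induces and that take no part in the relay had higher list medians than the 9 members at each week. The median of the 9 mixes members that passed with members that did not. At week 1 Stat2, Irf7 and Usp18 changed by 2.53, 4.36 and 3.86, more than the IFIT and Mx median below. Of 8 IFIT and Mx effectors, 6 were higher at week 1, led by Ifit1 (5.00, SE 0.41, adjusted p = 8.78e-10), Mx1 (3.29) and Ifit3 (3.23), with a list median of 2.09 at week 1 and 1.37 at week 9. Of 11 genes of the oligoadenylate synthetase family, whose catalytic members make the activator of the ribonuclease RNase L, 6 were higher at week 1, led by Oasl2 (4.41, SE 0.42, adjusted p = 1.14e-08), Oas3 (4.21) and Oasl1 (3.73). Of 16 genes known for induction by interferon gamma, 8 were higher at week 1 (median 1.54) and 13 at week 7 (median 2.24). Between weeks 1 and 9, 4 of the 8 IFIT and Mx effectors and 3 of the 11 oligoadenylate synthetases were lower at week 9, beside the 3 members. Over all probe sets, 4.64% were called lower. Of the 16 genes induced by interferon gamma, Igtp, Irgm1 and Gbp3 were lower at week 9 (−1.18, −0.95 and −0.86) and Cd74, which chaperones MHC class II, was higher (2.21, adjusted p = 0.000263).

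**Figure D4:**
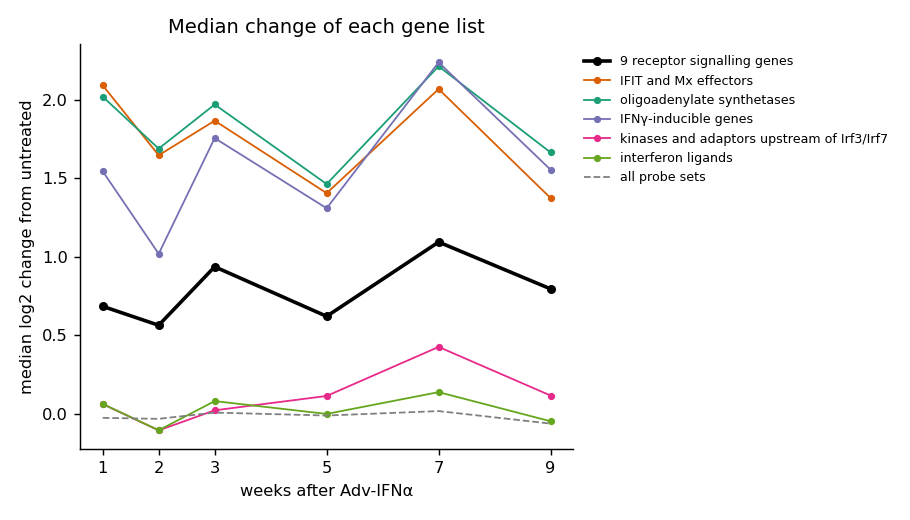
Median log2 change from untreated (vertical axis) by weeks after Adv-IFNα (horizontal axis) for the 9 genes, for 5 lists of the pathway and its targets, and for all probe sets (dashed). The median of the 9 genes lies between the interferon-induced lists, such as the IFIT and Mx effectors (2.09 at week 1), and the ligands and upstream kinases, whose medians are between −0.11 and 0.43.

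Cell composition and RNA quality moved with some of these results. The marker counts stand beside all probe sets, of which 1%, 0.877%, 1.07%, 1.85%, 9.85% and 6.41% were called higher at weeks 1, 2, 3, 5, 7 and 9. The shares called lower were 5.82% at week 7 and 7.53% at week 9. Of 4 leukocyte markers none was higher at weeks 1 to 3, 2 were at week 5 and 4 at weeks 7 and 9. Their summed linear intensity ran from 214 to 312 in untreated kidneys, 230 to 268 at week 1, 202 to 265 at week 2, 236 to 454 at week 3, 408 to 1167 at week 5, 638 to 1117 at week 7 and 626 to 1542 at week 9, and no marker was at 0. Of 6 macrophage and monocyte markers 1 was higher at week 1, none at weeks 2 and 3, 2 at week 5 and 4 at weeks 7 and 9, while all 3 proximal tubule markers were lower at week 7 and 1 was at week 9. Of 7 T and NK cell markers 1 was higher at weeks 3 and 5, 2 at week 7 and 3 at week 9, with Nkg7 at a mean log2 intensity of 2.93 in untreated kidneys and 4.20 at week 3. Of 3 B and plasma cell markers 1 was higher at weeks 7 and 9, where Jchain had means of 6.52 and 7.80 against 3.99 in untreated kidneys. The erythroid gene Hba-a1 ran from 6.07 to 7.27 at week 1 and from 8.24 to 9.35 in untreated kidneys, and neither of 2 erythroid markers passed at week 1. The part of cell composition in the members' values was not tested.

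The log2 ratio of 3′ to 5′ beta-actin signal, a measure of RNA integrity and labelling, had a mean of 1.57 in untreated and 1.95 in treated kidneys, and 29 of 30 treated arrays exceeded the highest untreated one. The same ratio for Gapdh was 1.51 and 1.52. With the actin ratio as a covariate, all 24 differences of Stat2, Irf9, Irf7 and Usp18 from untreated passed, from 1.28 to 4.59 on the log2 scale, and the week 7 call of Irf1 did not.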

How the data were processed

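RNA from whole kidney was labelled by the study with the NuGEN Ovation kit and measured on Affymetrix HT MG-430 PM arrays. The deposited series table holds log2 intensities that the authors computed by RMA (background correction, quantile normalization and probe summary), and its 33 columns were used as deposited. Array medians were 3.97 to 4.09, and correlations between arrays were 0.965 to 0.994. Depth is not defined for arrays, and the number of mice limits the precision. The 9 genes and all lists were chosen with earlier results of these data known. Of 45141 probe sets, 104 controls were left out and 45037 tested. Of these, 28898 carried 1 gene symbol, 551 several and 15588 none in the platform annotation.

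Group means over all 33 arrays were fitted with limma 3.58.1 in R 4.3.3 (lmFit, contrasts, eBayes), with Benjamini-Hochberg adjustment per contrast over all probe sets and a threshold of 0.05, as differences and 95% intervals on the log2 scale. On simulated data for week 9 against untreated (45037 probe sets, 50 changed per fold size) the fit recovered 32% of changes of 1.5-fold, 88% at 2-fold and 100% at 4-fold. Correlations used 100000 permutations (scipy 1.17.1). List genes were named as the up to 3 largest changes among those passing, and further members where 5 or fewer passed. The alternatives were leaving out each array, 1 mean per gene over its probe sets, only the compared groups, array weights, no dim probe sets (log2 above 5 on at least 3 arrays was kept), a trended robust variance prior, scaling to the 75th percentile, the actin ratio as a covariate, the replicate block, and a 2-fold minimum. The design text gives the arrays as separate mice. The methods give 9 weeks as the age at injection and another passage gives 8.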

Additional observations from a re-analysis of the deposited data

Results flagged for a closer look

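In 2 of the 54 groups of 5 kidneys examined (9 genes by 6 weeks), 1 kidney lay far from the rest, where chance alone gives about 1 in 20. Jak1 read 8.16 in week 2 replicate 5, where the other 4 kidneys read 7.60 to 7.71. Irf9 read 6.59 in week 5 replicate 3, where the others read 7.39 to 7.64, and that kidney is the one that overlapped the untreated range.

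Levels differed between treated weeks, by limma contrasts over the 9 genes and every pair of the 6 treated weeks, in 13 cases. Of all probe sets, 0.206% were called lower at week 5, 5.36% at week 7 and 4.64% at week 9, each against week 1. At week 7, 9.46% were called higher than at week 1, 8.58% than at week 2, 6.9% than at week 3 and 4.72% than at week 5. No week had its own untreated group, so these contrasts compare levels and not effects of treatment. Irf7 stood at −1.84 at week 5, −0.99 at week 7 and −1.92 at week 9, each against week 1. Usp18 stood at −1.41 at week 5 and −1.39 at week 9 against week 1 and 0.97 higher at week 7 than at week 5. Stat2 stood at −0.86 at week 9 against week 1. Ifnar1 at week 7 was higher by 0.40 than at week 1, 0.39 than at week 2, 0.51 than at week 3 and 0.42 than at week 5. Irf1 at week 7 was 0.83 above week 2, and Irf9 at week 7 was 0.72 above week 5. Of these, 4 passed without each of the 10 kidneys in turn: Irf7 at weeks 5 and 9, Usp18 at week 9, and Ifnar1 at week 7 against week 3.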

How the results depend on the processing

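The number of the 9 genes higher than untreated stayed within 1.5 times its value under every alternative run, as did the number that differed between weeks 9 and 1. Leaving out each kidney gave 4 to 5 genes at week 1, 4 at weeks 2 and 3, 3 to 4 at week 5, 4 to 6 at week 7 and 4 to 5 at week 9, and 2 to 4 for week 9 against week 1. For Stat2, Irf9, Irf7 and Usp18 against untreated, 380 of 384 alternative values kept direction and call, 4 lost the call (all Irf9 at week 5) and none reversed. The largest shift from leaving out 1 kidney was that of Irf7 at week 9 without replicate 2, from 2.44 to 2.84. Nothing in the labels says that the replicate numbers pair mice. Over 93 pairs of arrays with the same number, deviations correlated with a median r of −0.01, against 0.001 over 372 pairs with other numbers. Of 33 arrays, 10 were nearest to an array of their own number, a count for which no chance share was computed. The replicate block left the counts at 4, 4, 4, 4, 5 and 4 over the weeks and 3 for week 9 against week 1. Signs turned only for members that passed in neither fit. With the actin covariate these were Ifnar1 at weeks 1 (0.0516), 2 (0.0589) and 5 (0.0115) and Socs1 at weeks 1 (0.0235), 7 (0.14) and 9 (0.023). As the mean of its probe sets Ifnar2 was 0.22 from week 1 at week 9. Leaving out 1 kidney turned Jak1 at week 1 (−0.0327 without untreated replicate 2 to 0.102 without untreated replicate 1), Socs1 at week 9 against week 1 (−0.188 without week 1 replicate 3 to 0.0103 without week 9 replicate 4) and Ifnar2 at week 9 against week 1 (−0.293 without week 9 replicate 1 to 0.0458 without week 9 replicate 3). The causes were not tested. With 3 untreated kidneys, changes under 2-fold would often be missed, and dim Socs1 has little signal over background.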
